A study of Mus musculus with 6 samples.

Results

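Transcripts of 10 skeletal muscle fibre genes were followed in RNA-seq libraries of cells sorted from mouse mammary glands: *Acta1*, *Myh4*, *Actn3*, *Ckm*, *Tnnt3*, *Mylpf*, *Myh1*, *Myh2*, *Ttn* and *Neb*, out of 54418 gene identifiers in the deposited count table. The genes were selected on their values in these same libraries, as muscle fibre genes with counts in a sorted epithelial sample. Their levels and their differences between genotypes are therefore given as a description, and nothing is concluded from tests of them. The study compared *Glis2*+/+ (wild-type) and *Glis2*-/- (knockout) females of the C57BL/6 strain at 4 weeks of age, with 3 libraries of each genotype. *Glis2* encodes a zinc finger transcription factor of the GLI-similar family, and the labels name no further allele, promoter or treatment. Glands were dissociated with collagenase and hyaluronidase, trypsin and dispase, stained for viability, TER-119, CD31, CD45, CD24 and CD49f, and sorted, and the labels do not give the gate that each library came from. The study describes 3 mice per genotype, which equals the number of libraries, and the labels do not tie each library to an animal.

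Skeletal muscle fibres are long, multinucleated cells filled with sarcomeres, the repeating units in which myosin thick filaments pull on actin thin filaments. Fast fibres use the myosin heavy chains MYH1, MYH2 and MYH4, whereas slow fibres use MYH7, and titin and nebulin set the length and register of the filaments. The mammary epithelium has its own contractile cells, the myoepithelial cells, which use smooth muscle actin and myosin (ACTA2 and MYH11) instead of the fibre proteins.

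Library totals ranged from 24996524 to 31393917 estimated counts. *Glis2* itself was at 21.7, 23.2 and 19.6 CPM (counts scaled to library size, with TMM factors) in the *Glis2*+/+ libraries and at 10.1, 17.0 and 16.3 CPM in the *Glis2*-/- libraries, so transcripts remained in the knockout. The genotypes did not overlap in CPM, but the log2 fold change was -0.57 with an adjusted p of 0.906 in edgeR. They overlapped in TPM rescaled to protein-coding genes, at 30.4, 39.4 and 18.8 in *Glis2*+/+ and 31.3, 30.8 and 31.3 in *Glis2*-/- cells. Epithelial markers were abundant throughout, with *Krt8* counts 9.93 to 96.9 times the counts of the 10 muscle genes together. *Glis2*+/+ replicate 2 was lowest in the summed fibroblast, endothelial, adipocyte, immune and erythroid marker lists. *Glis2*-/- replicate 2 was next to lowest in all of these but the immune list, at 2632 against 2339 CPM for fibroblast and 101 against 70.8 CPM for adipocyte markers.

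Because the sequenced reads were 40 nt long, it mattered whether the members could be told apart by sequence. Of the 40-base stretches in the transcript with the longest coding region, 24.0% of *Myh4*, 32.5% of *Myh1* and 32.6% of *Myh2* also occurred in a transcript of another gene, mostly of other myosin heavy chains. The following coding stretches of 80 bases, shown because a 40-nt read from their shared part has the same letters in all 3 genes, are identical over their first 73 bases. They lie on the plus strand of chromosome 11 (GRCm38) at chr11:67253315-67253394 (exon 26 of *Myh4*), chr11:67215079-67215158 (exon 27 of *Myh1*) and chr11:67189480-67189559 (exon 27 of *Myh2*), and capitals mark the bases at which *Myh4* differs from the other pair.
Myh4: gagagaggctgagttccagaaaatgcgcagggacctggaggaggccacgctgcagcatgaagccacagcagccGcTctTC
Myh1: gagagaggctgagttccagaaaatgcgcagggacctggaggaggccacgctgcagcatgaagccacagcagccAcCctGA
Myh2: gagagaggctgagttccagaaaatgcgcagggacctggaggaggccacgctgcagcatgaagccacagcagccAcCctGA

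The actins differed more in sequence. *Acta1*, skeletal muscle actin, has the same coding length as *Acta2*, smooth muscle actin of myoepithelial cells, and as *Actc1*, cardiac actin (1131 nt each). Its coding sequence was 85.4% identical to that of *Acta2* and 86.3% identical to that of *Actc1*, the longest identical run was 29 nt with either, and 0 stretches of 40 bases were shared with either gene. For the other members, the share of 40-base stretches found in another gene was 2.99% for *Acta1*, 0.421% for *Actn3*, 0.0445% for *Neb* and 0 for *Ckm*, *Tnnt3*, *Mylpf* and *Ttn*.

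Summed over the 10 genes, the counts were 3849, 575 and 2886 for *Glis2*+/+ and 876, 1238 and 1459 for *Glis2*-/- cells. This was between 0.00201% and 0.0127% of the total count. As summed CPM the values were 125, 20.1 and 111 in *Glis2*+/+ and 35.0, 41.3 and 46.6 in *Glis2*-/- cells. *Glis2*+/+ replicates 1 and 3 lay above every *Glis2*-/- library and *Glis2*+/+ replicate 2 lay below every one, so the genotypes overlapped. The means were 85.2 ± 56.8 (SD, n = 3) in *Glis2*+/+ and 41.0 ± 5.81 (SD, n = 3) in *Glis2*-/- cells, and the *Glis2*+/+ mean was 118 without replicate 2. In bulk libraries such as these, fewer muscle cells or fragments and less muscle RNA in each cannot be told apart.

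*Ttn* (chr2:76703980-76982547, minus strand) encodes titin, the elastic protein that spans from the edge to the middle of the sarcomere. It was at 73.8, 8.82 and 48.7 CPM in *Glis2*+/+ and at 17.1, 19.8 and 26.5 CPM in *Glis2*-/- cells. It was the largest contributor in every library, with 43.8% to 59.2% of the counts of the 10 genes. *Neb* (chr2:52136647-52378474, minus strand) encodes nebulin, which lies along the thin filament. It was at 17.7, 2.80 and 9.86 CPM in *Glis2*+/+ and at 4.08, 2.90 and 6.33 CPM in *Glis2*-/- cells. For both genes *Glis2*+/+ replicate 1 was highest and *Glis2*+/+ replicate 2 lowest, and counts of *Ttn* were 3.15 to 6.80 times those of *Neb*.

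*Acta1* (chr8:123891769-123894751, minus strand) was at 13.1, 0.980 and 9.56 CPM in *Glis2*+/+ and at 3.40, 7.04 and 4.15 CPM in *Glis2*-/- cells. Its highest library was 13.3 times its lowest. Its counts were 0.0843% to 0.882% of those of *Acta2*. *Tnnt3* (chr7:142498836-142516009, plus strand), the fast fibre troponin T that ties the calcium switch to the thin filament, was at 3.44, 1.26 and 7.52 CPM in *Glis2*+/+ and at 2.48, 1.40 and 1.63 CPM in *Glis2*-/- cells. *Glis2*+/+ replicate 2 was the lowest library for both genes, while the highest was replicate 1 for *Acta1* and replicate 3 for *Tnnt3*. *Actn3* (chr19:4861216-4877909, minus strand), the fast fibre alpha-actinin that anchors thin filaments, was at 2.30, 0.105 and 5.14 CPM in *Glis2*+/+ and at 1.60, 0.401 and 0.351 CPM in *Glis2*-/- cells. Its value in *Glis2*+/+ replicate 2 rests on 3 counts.

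*Myh4* (chr11:67238029-67260446, plus strand), the fastest of the adult myosin heavy chains, was at 4.83, 1.61 and 22.1 CPM in *Glis2*+/+ and at 3.04, 2.24 and 2.49 CPM in *Glis2*-/- cells. *Glis2*+/+ replicate 3 stood far above the other 5 libraries, which ranged from 1.61 to 4.83 CPM. *Myh1* (chr11:67200052-67224575, plus strand), another fast myosin heavy chain, was at 6.64, 2.66 and 3.34 CPM in *Glis2*+/+ and at 0.759, 3.77 and 1.57 CPM in *Glis2*-/- cells. *Myh2* (chr11:67171027-67197517, plus strand), the myosin heavy chain of fast oxidative fibres, was at 1.52, 0 and 1.92 CPM in *Glis2*+/+ and at 1.16, 2.87 and 2.01 CPM in *Glis2*-/- cells. The 0 of *Myh2* in *Glis2*+/+ replicate 2 allows up to 3 counts, or 0.105 CPM, as counting error alone. Of the counts of these 3 genes, *Myh4* took 37.2%, 37.7% and 80.8% in *Glis2*+/+ and 61.3%, 25.2% and 41.1% in *Glis2*-/- libraries, on 122 to 712 counts.

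*Ckm* (chr7:19404776-19422841, plus strand), the muscle creatine kinase that buffers ATP, was at 0.681, 1.09 and 2.03 CPM in *Glis2*+/+ and at 0.200, 0.868 and 0.160 CPM in *Glis2*-/- cells. *Mylpf* (chr7:127208890-127214298, plus strand), the fast regulatory myosin light chain, was at 0.745, 0.805 and 0.614 CPM in *Glis2*+/+ and at 1.16, 0.0668 and 1.47 CPM in *Glis2*-/- cells. The lowest library was *Glis2*-/- replicate 3 for *Ckm* and *Glis2*-/- replicate 2 for *Mylpf*, on 5 and 2 counts, and *Glis2*-/- replicate 1 for *Myh1*. The genotypes overlapped in all 10 genes, whereas 11.7% of all genes tested did not overlap in one direction or the other. *Glis2*+/+ replicate 2 was the lowest library for 7 of the 10, against 19.9% of the 21236 genes tested.

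**Figure D1:**
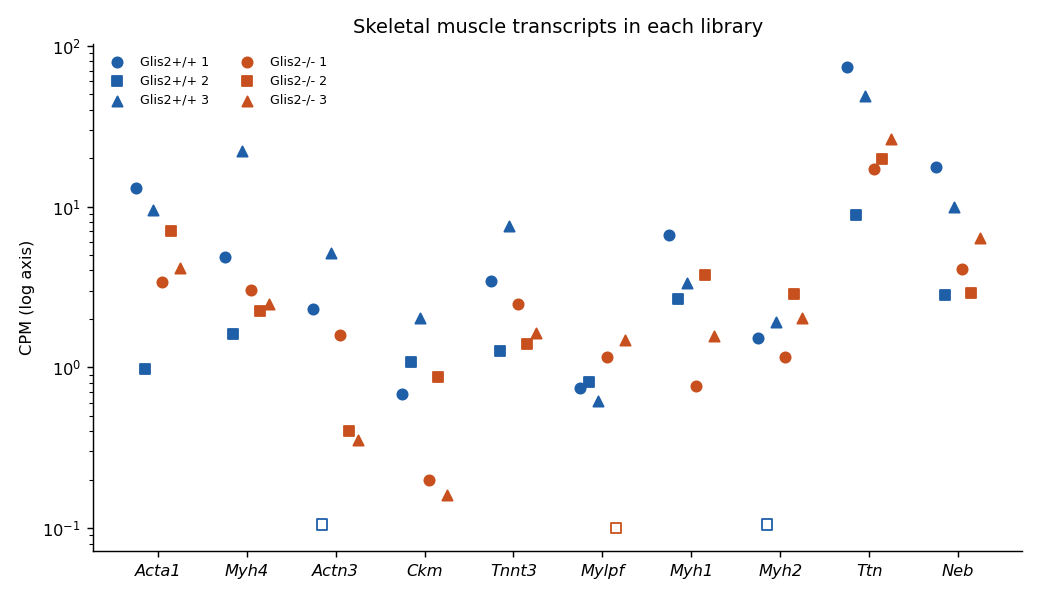
CPM (log axis) of the 10 muscle genes in each library, with blue for Glis2+/+, orange for Glis2-/- and the marker shape for the replicate; open markers stand for 3 counts or fewer and are drawn no lower than the level of 3 counts. Glis2+/+ replicate 2 is the lowest library for 7 genes, and Glis2+/+ replicate 3 is well above the rest for Myh4 at 22.1 CPM.

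The members did not keep fixed proportions. The ratio of *Ttn* to *Myh4* counts was 15.3, 5.48 and 2.21 in the *Glis2*+/+ libraries and 5.64, 8.84 and 10.6 in the *Glis2*-/- libraries. The 2 libraries with the most muscle counts thus differed most in this ratio: *Myh4* made up 3.87% of the counts of the 10 genes in *Glis2*+/+ replicate 1 and 19.9% in *Glis2*+/+ replicate 3. Without *Ttn*, the sum of the other members was highest in *Glis2*+/+ replicate 3 (62.1 CPM) and not in replicate 1 (50.9 CPM).

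**Figure D2:**
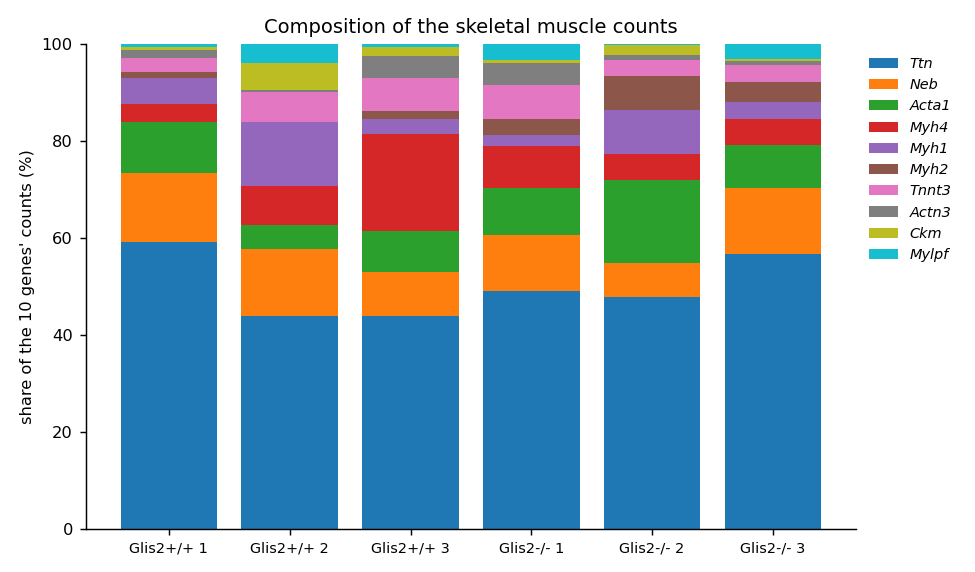
Share of the counts of the 10 muscle genes (%, stacked bars from 0 to 100) taken by each gene in each library. Ttn takes 43.8% to 59.2% everywhere, whereas Myh4 takes 3.87% in Glis2+/+ replicate 1 and 19.9% in Glis2+/+ replicate 3.

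Levels were compared between genes per transcript length, as TPM rescaled to nuclear protein-coding genes, since these took only 8.78% to 11.1% of the deposited TPM. On this scale the medians over 6 libraries were 11.3 for *Acta1*, 9.03 for *Tnnt3*, 6.95 for *Ttn*, 5.03 for *Mylpf*, 1.79 for *Neb*, 1.30 for *Ckm*, 1.14 for *Myh1*, 1.13 for *Actn3*, 1.06 for *Myh4* and 0.679 for *Myh2*. Each gene's range over the libraries overlapped that of its neighbours in this order. *Ttn* ranged from 1.65 in *Glis2*-/- replicate 1 to 27.4 in *Glis2*+/+ replicate 1, wider than its CPM. The transcript length implied by its count and TPM, calibrated on 530 genes with 1 annotated transcript, was 5570 to 24356 nt, against 106824 nt for its longest annotated transcript. The same estimate gave 4855 to 9531 nt for *Neb*, against 22489 nt, and 509 to 1660 nt for *Ckm*, against 2742 nt. It gave 402 to 575 nt for *Tnnt3*, against 1079 nt, and 295 to 484 nt for *Mylpf*, against 766 nt. For *Acta1* it was 833, 1330 and 908 nt in *Glis2*-/- replicates 1, 2 and 3, against 1327 to 1333 nt in *Glis2*+/+ libraries. For *Actn3* it was 1275 nt in *Glis2*-/- replicate 1, against 2863 to 2864 nt in the other libraries with more than 3 counts. It was steady for *Myh4*, at 6079 to 6189 nt against 6016 nt. TPM divides by this assigned length and CPM does not.

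Between genotypes, 0 of the 10 genes passed both thresholds (adjusted p of 0.05, log2 fold change of 0.58 in size) in edgeR's quasi-likelihood test, beside 0% of the 21236 genes tested; nothing is read from this count, since the same contrast was in view when the genes were chosen. At an unadjusted p under 0.05 in edgeR there was 1 of the 10 members, *Myh4*, beside 1130 (5.32%) of all genes, and nothing is read from this either. The DESeq2 test named in the study's methods called 0 members and 42 of the same 21236 genes. The log2 fold change of *Glis2*-/- over *Glis2*+/+ was below 0 for 8 members and above 0 for 2, with a median of -1.10, beside a median of 0.01 over all genes, of which 48.4% were below 0. It was -1.87 for *Myh4* (standard error 0.80), -1.69 for *Actn3* (1.11), -1.61 for *Ckm* (0.85), -1.19 for *Neb* (0.59) and -1.15 for *Tnnt3* (0.61). It was -1.05 for *Ttn* (0.60), -1.05 for *Myh1* (0.61), -0.69 for *Acta1* (0.73), 0.31 for *Mylpf* (0.93) and 0.81 for *Myh2* (1.08). The values of *Myh4*, *Tnnt3* and *Actn3* rested most on *Glis2*+/+ replicate 3, and without it they were -0.32, -0.36 and -0.63. Without *Glis2*+/+ replicate 1, those of *Ttn*, *Neb*, *Acta1* and *Myh1* were -0.44, -0.51, -0.11 and -0.56. Without *Glis2*+/+ replicate 2 those of *Acta1* and *Myh2* were -1.22 and 0.23, and *Myh2* was at 1.39 without *Glis2*+/+ replicate 3. Without *Glis2*-/- replicate 1 those of *Actn3* and *Myh1* were -2.73 and -0.66. Without *Glis2*-/- replicate 2 those of *Ckm*, *Myh1*, *Acta1* and *Myh2* were -2.81, -1.86, -1.07 and 0.45. The value of *Mylpf* turned to -0.26 without *Glis2*-/- replicate 3 and was 0.84 without *Glis2*-/- replicate 2.

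The spread between libraries of a genotype was wide for the summed members in *Glis2*+/+ cells, with an SD of 56.8 on a mean of 85.2 CPM. In *Glis2*-/- cells it was 5.81 on 41.0 CPM. For *Ttn* the SD was 32.8 on 43.8 CPM in *Glis2*+/+ and 4.80 on 21.1 CPM in *Glis2*-/- cells. In *Glis2*-/- cells it was 1.56 on 2.03 CPM for *Myh1* and 0.737 on 0.899 CPM for *Mylpf*. The biological coefficient of variation in edgeR, which pools both genotypes, had a median of 63.1% over the 10 members and of 29.8% over all genes tested. For *Ttn*, the best counted member, it was 49.8%, where genes of its abundance had 19.5%. Part of the contrast with all genes goes with low abundance, since the trend at the members' abundance had a median of 44.1%. The value was above that trend for 9 of the 10 members and at it for *Ckm* (68.9% and 69.0%). Over the 7 members with more than 3 counts in every library, the highest library was a median of 8.75 times the lowest, against 1.83 times over 18809 genes. This ratio was taken over all 6 libraries, so it also holds differences between genotypes.

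Other fibre genes were read from a list of 31 sarcomere genes that were not members, of which 24 had enough counts to be tested. None of the 24 passed both thresholds in edgeR, beside 0% of all genes, and 3 of the 24 had an unadjusted p under 0.05, beside 5.32% of all genes. DESeq2 called 0 of them. The log2 fold change was below 0 for 18 and above 0 for 6, with a median of -0.70. The genotypes did not overlap in 3 of the 24, each lower in *Glis2*-/- cells, beside 5.5% of all genes that were separated in that direction. The best expressed, by mean CPM per kb of the longest transcript, were *Obsl1* and *Myom1*, cytoskeletal linkers of the sarcomere's middle, and *Nebl*, a nebulin relative, with log2 fold changes of 0.26 (standard error 0.14), -0.38 (0.19) and 0.10 (0.15). *Mybpc1*, slow myosin binding protein C, was singled out after its values were seen: it was at 4.54, 0.630 and 2.96 CPM in *Glis2*+/+ and at 0.320, 0.367 and 0.511 CPM in *Glis2*-/- cells, and the edgeR estimate was -2.74 on the log2 scale, with a standard error of 0.74 and an adjusted p of 0.906.

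**Figure D3:**
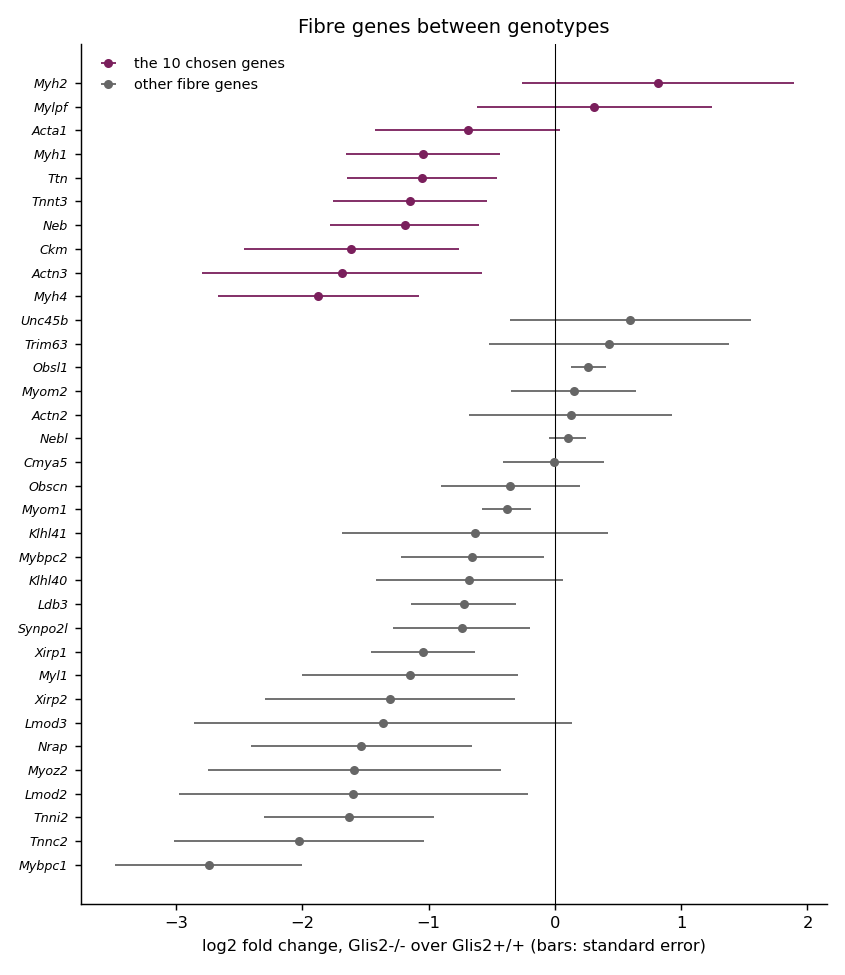
Log2 fold change of Glis2-/- over Glis2+/+ from edgeR (points) with its standard error (bars) for the 10 chosen muscle genes and the 24 other fibre genes tested. The chosen genes run from -1.87 for Myh4 to 0.81 for Myh2, and no gene shown passed the adjusted p threshold.

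The remaining muscle lists gave 0 calls in edgeR as well. Of 20 genes of calcium handling and excitation, 12 were tested, 8 of them below and 4 above 0, with -0.34 as the median log2 fold change. The genotypes did not overlap in 1 of the 12, *Casq1*, a calcium buffer of fast fibres, which was higher in *Glis2*-/- cells (log2 fold change 1.36, standard error 0.50), beside 6.23% of all genes separated in that direction. Its best expressed genes were *Jph2*, which holds the calcium store against the surface membrane, *Casq2*, a calcium buffer of that store, and *Stac3*, a partner of the muscle calcium channel, with log2 fold changes of 0.35 (standard error 0.22), 0.27 (0.33) and -0.34 (0.35). Of 13 genes of fibre energy metabolism, 9 were tested, with 6 below and 3 above 0 and a median of -0.19, and the genotypes did not overlap in 2 of the 9, each lower in *Glis2*-/- cells, beside 5.5% of all genes. *Pfkm* (muscle phosphofructokinase), *Pygm* (muscle glycogen phosphorylase) and *Mb* (myoglobin) had 0.05 (0.14), -0.80 (0.29) and -0.34 (0.40). The transcripts of *Sln*, *Chrne* and *Cox8b* had 0 counts in all 6 libraries.

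Of 14 slow and cardiac fibre genes, 10 were tested, with 9 below and 1 above 0 and a median of -0.48, and the genotypes did not overlap in 4 of the 10, of which 3 were lower and 1 (*Myh7*) higher in *Glis2*-/- cells, beside 5.5% and 6.23% of all genes. *Myh7*, the slow myosin heavy chain, had 96, 99 and 52 counts in *Glis2*+/+ and 125, 104 and 114 counts in *Glis2*-/- libraries, so it did not share the low value of *Glis2*+/+ replicate 2. *Tnni3*, *Tnnc1* and *Tnnt2*, troponin subunits of heart and slow muscle, had log2 fold changes of -0.46 (standard error 0.57), -0.37 (0.70) and -0.77 (0.28). *Actc1* had 81, 4 and 28 counts in *Glis2*+/+ and 14, 11 and 69 counts in *Glis2*-/- libraries. The developmental myosins were present at low counts, with 122, 20 and 50 for *Myh8* and 41, 14 and 37 for *Myh3* in *Glis2*+/+ libraries. In *Glis2*-/- libraries they had 12, 59 and 3 and 37, 18 and 28 counts.

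Genes of satellite cells, the stem cells of muscle, and of differentiating myoblasts were highest in *Glis2*+/+ replicate 1 for 8 of the 10 listed genes that had any count. *Pax7*, the satellite cell transcription factor, had 124, 4 and 57 counts in *Glis2*+/+ and 14, 16 and 21 counts in *Glis2*-/- libraries. *Myod1*, the myogenic determination factor, had 61, 5 and 29 counts in *Glis2*+/+ and 1, 18 and 36 counts in *Glis2*-/- libraries. *Myog*, the factor of terminal differentiation, had 97, 0 and 0 counts in *Glis2*+/+ and 30, 30 and 94 counts in *Glis2*-/- libraries. *Myog* therefore did not follow the fibre genes, being at 0 in *Glis2*+/+ replicate 3, where *Myh4* was highest. *Mef2c*, which other tissues also use, had 706 to 2015 counts. *Myf6* and *Mstn* had 0 counts in all 6 libraries.

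The summed fibroblast, adipocyte and endothelial markers shared the low value of *Glis2*+/+ replicate 2. The summed fibroblast markers, among them *Col3a1*, *Col1a1* and *Col1a2*, were at 7484, 2339 and 7829 CPM in *Glis2*+/+ and at 4334, 2632 and 5986 CPM in *Glis2*-/- cells, with 7 of 8 genes lowest in *Glis2*+/+ replicate 2. The summed adipocyte markers, among them *Fabp4*, *Car3* and *Plin1*, were at 360, 70.8 and 279 CPM in *Glis2*+/+ and at 181, 101 and 293 CPM in *Glis2*-/- cells. *Fabp4* carried most of this sum, and only 5 of the 9 adipocyte genes were lowest in *Glis2*+/+ replicate 2. *Plin1*, which coats lipid droplets, was at 10.99, 4.69 and 14.4 CPM in *Glis2*+/+ and at 2.44, 3.51 and 5.66 CPM in *Glis2*-/- cells. The summed endothelial markers, among them *Pecam1*, *Cdh5* and *Kdr*, were at 810, 164 and 569 CPM in *Glis2*+/+ and at 525, 264 and 813 CPM in *Glis2*-/- cells, with 7 of 7 genes lowest in *Glis2*+/+ replicate 2. In *Glis2*-/- replicate 3 the endothelial sum was the highest of all libraries, while the muscle sum was 46.6 CPM. The part of these cells in the muscle values was not tested. The muscle genes were 1.67%, 0.860% and 1.41% of the fibroblast sum in *Glis2*+/+ and 0.808%, 1.57% and 0.779% of it in *Glis2*-/- cells. On that scale *Glis2*+/+ replicate 2 was no longer the lowest library and *Glis2*-/- replicate 2 reached the level of *Glis2*+/+ replicates 1 and 3. *Glis2*+/+ replicate 2 was also not the lowest against the endothelial and adipocyte sums. It was the lowest against the smooth muscle and myoepithelial sum and against the epithelial sum. Of the epithelial sum the muscle genes were 2.71%, 0.272% and 1.99% in *Glis2*+/+ and 0.560%, 0.566% and 0.908% in *Glis2*-/- cells.

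Blood cell markers were lower in amount. The summed immune markers, among them *Lyz2*, *Cd68* and *Ptprc*, ranged from 19.3 to 73.8 CPM, and the summed erythroid markers, among them *Hba-a2*, *Hbb-bs* and *Hba-a1*, from 7.35 to 32.9 CPM. Both lists were highest in *Glis2*-/- replicate 3, unlike the muscle genes. The immune sum had a mean of 29.4 CPM in *Glis2*+/+ and 50.0 CPM in *Glis2*-/- cells. The genotypes did not overlap in 3 of the 8 immune genes, each higher in *Glis2*-/- cells, beside 6.23% of all genes. In edgeR 0 of the 8 were called and 4 had an unadjusted p under 0.05, in both directions, beside 5.32% of all genes.

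The 11 smooth muscle and myoepithelial genes, among them *Acta2*, *Myh11* and *Tpm2*, summed to 5838, 4881 and 4587 CPM in *Glis2*+/+ and to 6286, 5915 and 7159 CPM in *Glis2*-/- cells. Their log2 fold changes were above 0 in 11 of 11, with a median of 0.31, beside 51.6% of all genes above 0. In edgeR 0 were called and 8 of 11 had an unadjusted p under 0.05, beside 5.32% of all genes. On the log2 scale *Acta2* differed by 0.41 (standard error 0.13) and *Acta1* by -0.69 (0.73). The epithelial markers, among them *Krt8*, *Krt18* and *Krt19*, summed to 4609, 7397 and 5568 CPM in *Glis2*+/+ and to 6247, 7303 and 5133 CPM in *Glis2*-/- cells, and were highest in *Glis2*+/+ replicate 2, where the muscle genes were lowest.

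**Figure D4:**
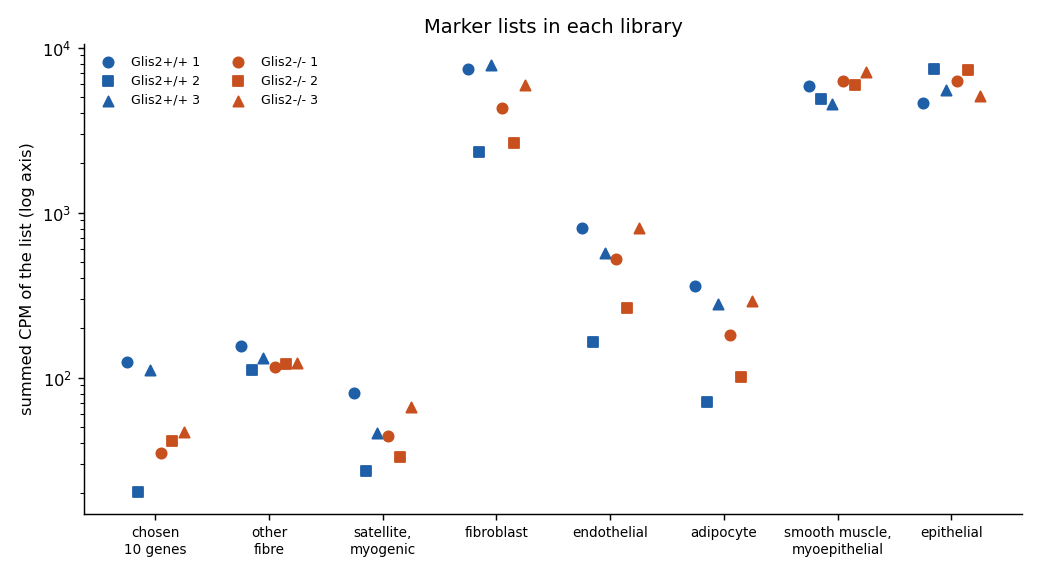
Summed CPM (log axis) of 8 gene lists in each library, with blue for Glis2+/+, orange for Glis2-/- and the marker shape for the replicate. Glis2+/+ replicate 2 is lowest for the chosen muscle genes (20.1), fibroblast (2339), endothelial (164) and adipocyte (70.8) markers and highest for epithelial markers (7397).

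The genes whose profile over the 6 libraries was most like the members' mean profile were not fibre genes. The likeness measure was the mean absolute difference of centred log2 CPM, and the 8 nearest were *Gm48114* (0.134), *Gm11605* (0.155), *Ebf2* (0.171), *Adcy1* (0.172), *C2* (0.219), *CT025731.2* (0.221), *Zfp473* (0.222) and *Cpne7* (0.223). The median over all genes was 0.755. Of 45 tested genes in the other fibre, calcium and energy lists, 1 was among the 100 nearest non-members of the 21236 genes tested. This was *Chrna1*, the alpha subunit of the muscle acetylcholine receptor. The members themselves lay at 0.308 (*Ttn*) to 1.33 (*Mylpf*) from their own mean, farther than any of the 8 genes named. *Myh1* (0.870), *Actn3* (0.937), *Ckm* (1.05), *Myh2* (1.14) and *Mylpf* lay beyond the median gene. The measure therefore cannot tell fibre genes from others.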

How the data were processed

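Per the labels and the study's methods, total RNA (1 ng) from sorted cells was made into stranded Takara SMARTer Pico v2 libraries without molecular identifiers and read as 40-nt pairs. The authors quantified them with Salmon 1.2.1 against Ensembl transcripts on mm10, using tximport, and deposited estimated counts per gene as whole numbers and log2(TPM + 1) values. Counting intervals and floors cover counting error only.

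Estimated counts were tested with edgeR 4.0.16 (R 4.3.3; filterByExpr, TMM, quasi-likelihood F test, Benjamini-Hochberg adjustment; 21236 genes). Alternatives used DESeq2 1.42.0 with apeglm 1.24.0 and limma 3.58.1 on log2 TPM with offsets of 1 and 0.1. Symbols, positions and sequences came from GENCODE vM21 (GRCm38, the assembly of mm10, an older annotation release), which matched 54166 of 54418 identifiers. Genes on the opposite strand span exon bases of *Acta1*, *Ckm*, *Tnnt3*, *Myh1*, *Myh2* and *Ttn*, and whether quantification used strand is not given in the sources used here. The scripts were tested on simulated counts.

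The 10 members and all lists were chosen with earlier results of these data known. Named genes were all members, *Glis2*, the 3 genes of each other list with the highest mean CPM per kb of the longest transcript (not TPM), 8 defining genes (*Myh7*, *Myh3*, *Myh8*, *Pax7*, *Myod1*, *Myog*, *Acta2*, *Actc1*), every gene past both thresholds in edgeR, and the 8 genes nearest in profile. *Mybpc1*, *Casq1*, *Chrna1* and the genes at 0 counts fall outside it and were singled out with their values in view. One further marker list and one set of sequence stretches are not reported here.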

Additional observations from a re-analysis of the deposited data

How the results depend on the processing

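The count of 0 genes called in edgeR was also 0 with DESeq2 size factors, with a minimum of 10 counts per library, with log2(TPM + 1) in limma, with a replicate block and without each replicate (0 to 0, on the genes of the full fit). It was 42 with DESeq2 and apeglm on the same genes, 40 without a filter on low counts and 1 with log2(TPM + 0.1) in limma, and the cause was not tested. DESeq2 on every gene with a count, an alternative added after seeing the data and with its count already known, gave 45. The other fibre genes had 0 calls in every alternative. Of 136 alternative values for the 10 members, 133 kept their direction and 0 were called. These values reuse the same libraries, with at most 1 left out, and count the shrunken DESeq2 values by sign alone. Agreement in direction was therefore largely built in. *Mylpf* turned from 0.31 to -0.20 with the replicate block and to -0.26 without *Glis2*-/- replicate 3, and *Acta1* from -0.69 to 0.012 with log2(TPM + 0.1). Leaving out 1 replicate gave *Mylpf* -0.26 to 0.84, *Ckm* -2.81 to -1.10, *Myh1* -1.86 to -0.56 and *Myh2* 0.23 to 1.39. DESeq2 with apeglm shrank each member's log2 fold change to at most 0.0043 in size.

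The replicate numbers did not pair the libraries (correlations of deviations of -0.02, 0.17 and 0.02), and the block changed no call. With the block, log2 fold changes were smaller in size for *Myh4* (-1.12), *Actn3* (-0.97), *Neb* (-0.91), *Tnnt3* (-0.85), *Ttn* (-0.66) and *Acta1* (-0.35). They were larger in size for *Ckm* (-1.84), *Myh1* (-1.18) and *Myh2* (1.23). Summed CPM of the members moved by less than 1 SD under each alternative; leaving out 1 replicate gave 65.4 to 118 in *Glis2*+/+ and 38.2 to 44.0 in *Glis2*-/- cells. Low counts limit *Ckm*, *Mylpf*, *Actn3* and *Myh2*, each with a library at 5 counts or fewer.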
